A study of Mus musculus with 30 samples.

Results

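Antioxidant defence genes encode the enzymes that remove superoxide and peroxides or that are induced by oxidative stress. The 10 genes *Sod1*, *Sod2*, *Cat*, *Gpx1*, *Gpx3*, *Prdx3*, *Prdx5*, *Txnrd1*, *Nqo1* and *Hmox1* were listed by name, and no value entered the rule, although earlier results of these data were known when the list was drawn up. They are 10 of the 49671 genes in the counts of a peptide study and 10 of the 56386 rows left when the transcript counts of an antibody study were summed to genes. Each of the 10 averaged 10 or more counts per heart, the minimum for testing, in both studies.

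Superoxide leaks from the respiratory chain of cardiac mitochondria and is produced by oxidases elsewhere in the cell. Superoxide dismutases turn it into hydrogen peroxide, which catalase splits into water and oxygen. Glutathione peroxidases and peroxiredoxins reduce peroxides with electrons from glutathione or thioredoxin, which draw them from NADPH. The transcription factor NRF2 is held back by KEAP1 and, when released, binds antioxidant response elements with small MAF proteins to induce genes such as *Nqo1*, *Txnrd1* and *Hmox1*.

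RNA was sequenced from the left ventricle of 30 wild type male C57BL6J mice. In the peptide study, 7 mice received Aβ42, a recombinant human amyloid beta peptide, and 7 received ScrAβ42, a peptide of the same composition in scrambled order. Both peptides were injected daily into the peritoneum for 4 weeks from 12 weeks of age, at 1 mg per day by the labels, while the methods of the study give the unit as micrograms. In the antibody study, 8 mice received 3D6, an antibody that neutralises Aβ42, and 8 received a control antibody of an IgG2a isotype. For these 16 mice the methods describe a high-fat diet with weekly antibody injections, begun after baseline measurements at 12 weeks of age, whereas the deposited design text states that they were given Aβ42, and the labels do not settle which. The results of the paper trace the sequenced hearts to its experiment with the high-fat diet. Mice without an injection were not analysed here. The comparisons ask whether raised Aβ42, or its neutralisation, went with other levels of these genes in the heart. The studies shared no mice and their counts come from separate tables, so levels are compared within a study and are only set side by side between them.

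Total counts ranged from 4478991 to 6015767 per heart for the peptides and from 6397192 to 8310478 for the antibodies. The summed level of 6 ventricular markers lay between 38530 and 82770 CPM in every heart (counts scaled to the TMM-normalized library size). *Myh6* alone held at least 23140 CPM of it, so the sum does not show the level of each marker. Within the Aβ42 group, *Myl2* fell as low as 801 CPM (median 6451) and *Myl3* as low as 734 CPM (median 4592). Hearts differed in other markers too. The summed level of 5 atrial markers had a median of 1154 CPM with Aβ42 (range 12.3 to 8387) and of 10.4 CPM with ScrAβ42 (3.81 to 3652), and of 98.2 CPM with 3D6 (1.05 to 666) and 2.88 CPM with the control antibody (0.819 to 2768). Every one of the 5 atrial markers reached 1 CPM in at least 1 heart of each group. The Aβ42 heart Abeta42_3457 had the lowest ventricular score, the mean z-score of the markers' log2 CPM, the highest atrial sum and the highest adipocyte score (2.17), and Abeta42_3455 had the highest atrial score (1.52, beside 1.38 for Abeta42_3457). The ScrAβ42 heart ScrAbeta42_3448 had the highest fibroblast and macrophage scores. Mouse 15 of the control antibody group had the highest atrial sum of its study, and mouse 22 of that group the lowest share of counts on the mitochondrial genome, 25.9%. For several results, values without these hearts are given beside them. Of the other scores, the endothelial score differed by -0.87 with 3D6 (exact two-sided permutation test, p = 0.016, adjusted p = 0.128 over 8 scores) and the skeletal muscle score by -0.66 with Aβ42 (exact two-sided permutation test, p = 0.0449, adjusted p = 0.26 over 9 scores). The part of marker content in each result was not tested, and fewer cells of a type cannot be told apart from less RNA per cell in these whole-tissue libraries.

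Each member is annotated as protein-coding on the GRCm38 genome. *Sod1*, the cytosolic copper and zinc superoxide dismutase, lies at chr16:90220754-90226329 on the plus strand, and *Sod2*, the manganese enzyme of the mitochondrial matrix, at chr17:13006846-13040063, also on the plus strand. The peroxide-removing genes are *Cat* at chr2:103453849-103485160 (minus), *Gpx1* at chr9:108338903-108340343 (plus), *Gpx3* at chr11:54902453-54910377 (plus), *Prdx3* at chr19:60864051-60874556 (minus) and *Prdx5* at chr19:6906697-6910106 (minus). *Txnrd1* lies at chr10:82833951-82897712 (plus), *Nqo1* at chr8:107388225-107403206 (minus) and *Hmox1* at chr8:75093621-75100589 (plus). The transcript counts of the antibody study show which products make up each gene. At least 96.8% of the counts of *Cat*, *Gpx3*, *Prdx3*, *Prdx5*, *Sod1*, *Nqo1* and *Hmox1* fell on 1 protein-coding transcript. *Sod2* was different, with 49.5% of its counts on the protein-coding transcript *Sod2-201*, 27.8% on the processed transcript *Sod2-207* and 20.6% on the retained-intron transcript *Sod2-204*. *Gpx1* was split into 62.0% for *Gpx1-201* and 33.0% for *Gpx1-204*, and *Txnrd1* into 79.3% for *Txnrd1-201* and 17.5% for *Txnrd1-208*. The share of *Sod2-201* ranged from 39.7% to 54.7% over the hearts, with a mean of 50.7% in the 3D6 group and 48.0% in the control antibody group. These shares are estimates by Salmon, which divides reads among overlapping transcripts.

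Promoter sequences are shown for 5 members, because *Sod2*, *Prdx3* and *Prdx5* varied together from heart to heart in the peptide study, and *Sod1* and *Txnrd1* varied in opposite directions in the antibody study. They come from RefSeq on GRCm38.p6, whose table holds windows of 300 bases, 250 before and 50 after a start site, for 9 of the 10 members, *Hmox1* being the exception. Each line gives the 250 bases before the start, 5′ to 3′ on the strand of the gene. Capitals mark 3 motifs searched on both strands by their letters alone, namely TGACNNNGC, the core of the antioxidant response element, GGGCGG, the GC box, and TATAAA, the TATA box. On the opposite strand the GC and TATA boxes read CCGCCC and TTTATA, and neighbouring GC boxes in *Sod1* overlap.
Sod2, chr17:13007589-13007838, plus strand: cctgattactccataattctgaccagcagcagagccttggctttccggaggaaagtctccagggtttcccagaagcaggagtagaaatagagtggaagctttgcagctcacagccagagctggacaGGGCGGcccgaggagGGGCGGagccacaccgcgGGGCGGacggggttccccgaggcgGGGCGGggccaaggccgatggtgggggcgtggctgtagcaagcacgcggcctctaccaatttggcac
Prdx3, chr19:60874539-60874788, minus strand: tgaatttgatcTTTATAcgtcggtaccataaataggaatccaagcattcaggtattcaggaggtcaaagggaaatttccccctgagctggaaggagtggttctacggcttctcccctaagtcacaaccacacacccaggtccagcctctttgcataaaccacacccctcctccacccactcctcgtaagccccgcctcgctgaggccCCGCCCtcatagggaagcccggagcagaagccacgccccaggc
Prdx5, chr19:6910107-6910356, minus strand: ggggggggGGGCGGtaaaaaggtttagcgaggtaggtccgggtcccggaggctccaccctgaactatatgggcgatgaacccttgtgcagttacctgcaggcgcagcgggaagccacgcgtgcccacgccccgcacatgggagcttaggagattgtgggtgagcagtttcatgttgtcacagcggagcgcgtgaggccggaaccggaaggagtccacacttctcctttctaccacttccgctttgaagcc
Sod1, chr16:90220512-90220761, plus strand: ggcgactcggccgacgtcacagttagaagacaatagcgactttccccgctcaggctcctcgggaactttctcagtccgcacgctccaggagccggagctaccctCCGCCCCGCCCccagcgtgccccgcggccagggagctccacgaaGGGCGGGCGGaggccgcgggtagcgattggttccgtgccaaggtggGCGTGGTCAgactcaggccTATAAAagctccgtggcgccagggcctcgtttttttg
Txnrd1, chr10:82858956-82859205, plus strand: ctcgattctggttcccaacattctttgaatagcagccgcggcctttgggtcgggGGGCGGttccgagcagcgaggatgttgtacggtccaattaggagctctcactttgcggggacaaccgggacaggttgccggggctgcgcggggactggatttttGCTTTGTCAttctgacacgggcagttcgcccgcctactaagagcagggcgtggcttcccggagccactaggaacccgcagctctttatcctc

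The core of the antioxidant response element was found in the windows of 2 members, *Sod1* and *Txnrd1*, against 12.4% of all 32851 promoter windows of the same length. In *Txnrd1* the letters are GCTTTGTCA, at position -92 from the start, and in *Sod1* GCGTGGTCA, at position -56, both on the opposite strand. The *Txnrd1* window is 1 of 3 for this gene, and transcripts that start within 100 bases of it held 96.8% of the *Txnrd1* counts. A GC box occurred in the windows of 9 members, with 4 copies each in *Sod1* and *Sod2*, and in 35.7% of all windows. A TATA box occurred in *Sod1* (position -37) and *Nqo1* (position -29) on the strand of the gene, and in *Prdx3* at position -239 on the opposite strand. It occurred in 13.6% of all windows. The promoters of *Sod2*, *Prdx3* and *Prdx5* shared none of these motifs other than the GC box. A match is a stretch of letters and says nothing of binding, and a window without one may have it further away.

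Levels between genes were compared per transcript length, as TPM, the counts divided by length and scaled to the same total. In the antibody study the counts of each transcript were divided by its own length and then summed to genes. In the peptide study gene counts were divided by a mean transcript length of each gene, weighted by abundance in the antibody study. *Sod2* had the highest median in all 4 groups, 573 TPM with Aβ42, 592 with ScrAβ42, 403 with 3D6 and 397 with the control antibody. Each value covers all transcripts of a gene. In the antibody study the coding *Sod2-201*, 5861 bases long, held 49.5% of the *Sod2* counts. *Sod2-207* (1138 bases, 27.8%) and *Sod2-204* (644 bases, 20.6%) are not protein-coding and, being shorter, add more TPM per count. The rank of *Sod2* is therefore not that of its coding transcript, whose place was not determined. *Sod1* followed in 3 groups, with 472 TPM with ScrAβ42 and 335 with 3D6, and it was below *Sod2* in each of the 7 ScrAβ42 hearts and in 6 of 8 hearts of each antibody group. *Hmox1* was last in every group, with medians of 28.5 TPM with Aβ42 and 5.57 TPM with 3D6, and *Txnrd1* was next to last, with 42.3 and 17.5 TPM. The place of *Gpx3* was the least fixed. It ranged from 175 to 3123 TPM within the Aβ42 group and did not differ beyond its spread from *Sod2*, *Sod1* and *Prdx5* there, exceeding *Sod1* in 4 of 7 hearts. Between the separately made tables, the median level of *Hmox1* was 24.6 CPM with Aβ42 and 5.92 CPM with 3D6, and that of *Prdx3* 307 and 118 CPM, a difference between tables that was not tested.

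**Figure D1:**
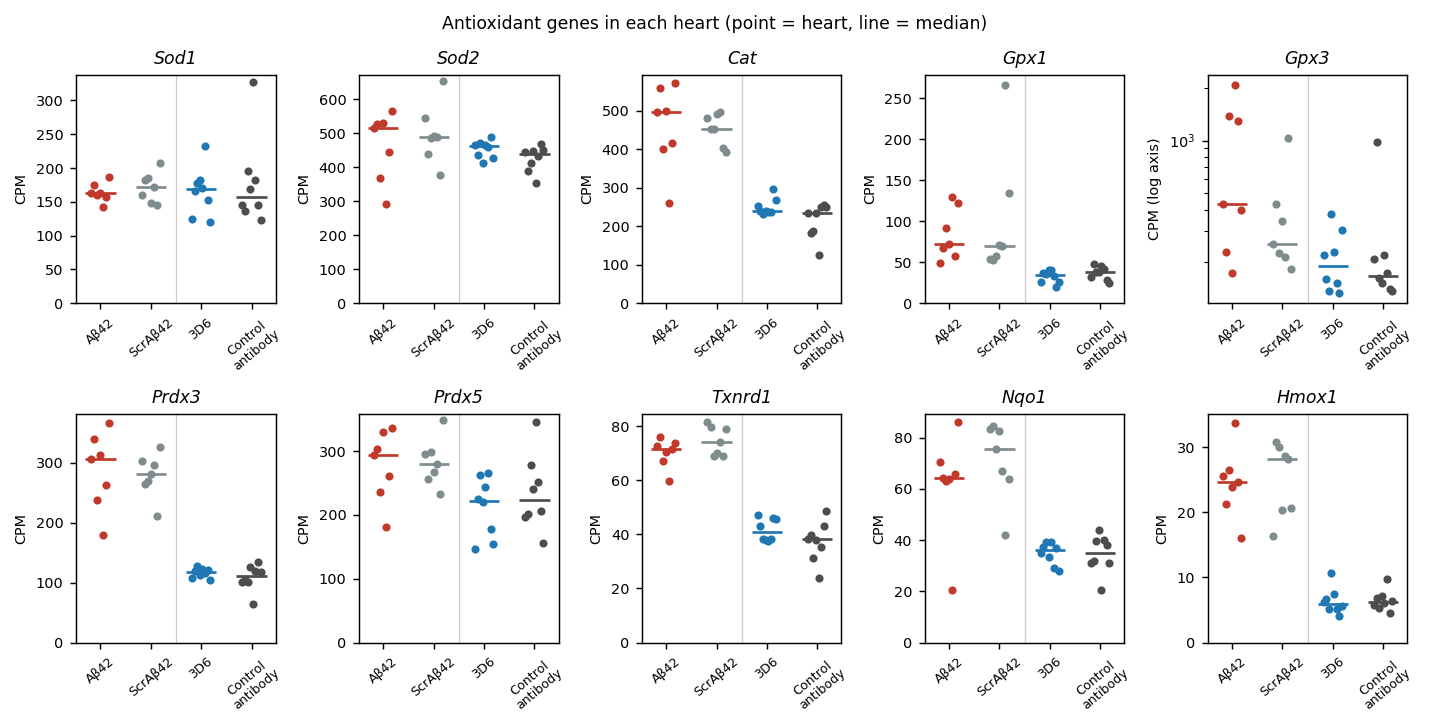
Level (CPM) of the 10 genes in each heart, by group, with a point for each heart and a line at the group median. The vertical axes start at 0 except for Gpx3, which is on a log axis and spans 172 to 2089 CPM in the Aβ42 group. The groups of each study overlap in every panel.

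Neither superoxide dismutase passed the test in either comparison. *Sod1* ranged from 143 to 187 CPM with Aβ42 (median 162) and from 145 to 208 CPM with ScrAβ42 (median 172). The groups overlapped, and the log2 fold change was -0.06 ± 0.09 (SE; edgeR quasi-likelihood test, adjusted p = 0.937). With the atrial score held constant in the fit, it was 0.02. With 3D6 it ranged from 120 to 232 CPM (median 169), and with the control antibody from 124 to 328 CPM (median 157), where mouse 22 was highest and the next heart stood at 196 CPM. 3D6 and control hearts differed by -0.10 ± 0.18 on the log2 scale, and by 0.08 without mouse 22. *Sod2* ranged from 292 to 564 CPM with Aβ42 (median 516), lowest in Abeta42_3457, and from 378 to 654 CPM with ScrAβ42 (median 490). Its log2 fold change was -0.10 ± 0.15 (adjusted p = 0.941), with a 95% interval of -0.42 to 0.21, and -0.02 without Abeta42_3457. Holding the atrial score constant gave 0.12. In the antibody study *Sod2* had the smallest SE of the members, with levels from 411 to 489 CPM with 3D6 (median 461) and from 353 to 469 CPM with the control antibody (median 439). The 2 lowest hearts belonged to the control group, mice 22 and 15, and the log2 fold change was 0.09 ± 0.08 (adjusted p = 0.946). Counted on *Sod2-201* alone, the protein-coding transcript, it was 0.16.

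Catalase, the peroxisomal enzyme that splits hydrogen peroxide, had the smallest p of the members in the antibody study. *Cat* ranged from 233 to 298 CPM with 3D6 (median 240) and from 127 to 255 CPM with the control antibody (median 235). Mice 22, 15 and 18 of the control group lay below every 3D6 heart, and mice 4 and 7 of the 3D6 group above every control heart, while the other hearts overlapped. This amounted to a log2 fold change of 0.22 ± 0.12, a fold of 1.17 (95% interval 0.975 to 1.39; adjusted p = 0.946). An exact two-sided permutation test of the mean log2 CPM gave p = 0.0684. Without mice 15 and 22 together, an alternative chosen after the data were seen, it was 0.10. With Aβ42, *Cat* ranged from 259 to 572 CPM (median 496), and with ScrAβ42 from 391.8 to 498 CPM (median 453). Aβ42 hearts thus held both the highest and the lowest values, and the log2 fold change was 0.01 ± 0.14 (adjusted p = 0.991). Holding the atrial score constant in the fit gave 0.21.

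*Gpx1*, the cytosolic and mitochondrial glutathione peroxidase, changed sign with Aβ42 when 1 ScrAβ42 heart was left out. It ranged from 49.4 to 130 CPM with Aβ42 (median 71.9) and from 52.7 to 266 CPM with ScrAβ42 (median 69.4). The 2 highest hearts, ScrAbeta42_3448 and ScrAbeta42_3449, were both controls. The log2 fold change was -0.26 ± 0.36 (adjusted p = 0.941) and turned to 0.20 without ScrAbeta42_3448. With the atrial score held constant in the fit, it was -0.62 (adjusted p = 0.659). *Gpx1* followed the red cell marker score across these 14 hearts (Pearson's r = 0.770, permutation adjusted p = 0.00623; Spearman's rho = 0.820, adjusted p = 0.0064; r = 0.680 without the 2 hearts farthest from the median score), and ScrAbeta42_3448 had the highest such score. With 3D6, *Gpx1* ranged from 19.6 to 40.5 CPM (median 34.6), and with the control antibody from 25.1 to 48.4 CPM (median 38.3), with 3 control hearts above every 3D6 heart. On the log2 scale the difference was -0.21 ± 0.16 (adjusted p = 0.946), and -0.13 without mouse 4. Across these 16 hearts *Gpx1* followed the macrophage score (r = 0.882, adjusted permutation p = 0.0004; rho = 0.797, adjusted permutation p = 0.00467; r = 0.881 without the 2 hearts farthest from the median score) and the red cell score (r = 0.659, adjusted permutation p = 0.0251; rho = 0.641, adjusted permutation p = 0.0328; r = 0.591 without 2 hearts).

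*Gpx3* encodes the secreted glutathione peroxidase of plasma, and it had both the largest and the most variable difference. With Aβ42 its levels were 172, 227, 400, 431, 1288, 1384 and 2089 CPM, and with ScrAβ42 they were 182, 215, 225, 253, 342, 429 and 1033 CPM. The highest 3 Aβ42 hearts exceeded every ScrAβ42 heart, while the lowest Aβ42 heart lay below every ScrAβ42 heart and the other 3 lay within their range. Its log2 fold change was 1.16 ± 0.55, a 2.24-fold higher level (95% interval 0.991 to 5.05), with an adjusted p = 0.762, and 98.6% of genes had a smaller change in size. The exact two-sided permutation test, which uses mean log2 CPM, gave a difference of 0.89 and p = 0.168. The log2 fold change was 0.77 without Abeta42_3457 and 1.64 without ScrAbeta42_3448. Without both it was 1.25 (adjusted p = 0.465), in an alternative also chosen after the data were seen.

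The antibody study gave *Gpx3* the opposite sign. Its levels were 133 to 378 CPM with 3D6 (median 191), and 136 to 218 CPM in 7 of the control hearts, while the eighth, mouse 15, reached 982 CPM. The log2 fold change of -0.34 ± 0.39 (adjusted p = 0.946) changed sign without mouse 15, to 0.34, and in DESeq2, a second count test, to 0.33. The effects of the 2 treatments on *Gpx3* differed by 1.502 ± 0.68 on the log2 scale (95% interval 0.11 to 2.90, adjusted p = 0.849), in the edgeR fit of this difference.

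Hearts with more atrial marker signal had higher *Gpx3* levels in both studies. Hearts fell into separate sets by the atrial score (5 markers tested in the peptide study, 4 in the antibody study), so no pooled correlation with that score is given. In the peptide study, 6 hearts had a score above 0, and 5 of them were given Aβ42. Their *Gpx3* levels were 400 to 2089 CPM (median 1160) at atrial sums of 158 to 8387 CPM. The other 8 hearts, 2 of them given Aβ42, had 172 to 429 CPM (median 226) at sums of 3.81 to 31.6 CPM. In the antibody study, the 6 hearts with a score above 0, of which 4 were given 3D6, had 208 to 982 CPM (median 266), and the other 10 had 133 to 218 CPM (median 152). Coefficients within a set used values with no group mean subtracted, so they pool hearts of both groups. Among the 6 peptide hearts with a score above 0, *Gpx3* was higher at higher scores (r = 0.919, permutation p = 0.0193; rho = 0.886, permutation p = 0.0328). The corresponding 6 antibody hearts gave r = 0.970 (permutation p = 0.00415) and rho = 0.943 (permutation p = 0.0173). Over the 4 sets, adjusted permutation p-values were 0.0386 and 0.0166 for r and 0.0656 for each rho. Without the 2 hearts of most distant score, r was 0.952 and 0.836. The 8 and 10 hearts with scores below 0 gave rho = 0.0952 (permutation p = 0.841) and rho = 0.321 (permutation p = 0.367). When the fit held the atrial score constant, *Gpx3* had a log2 fold change of -0.35 for Aβ42 (adjusted p = 0.84) and of -0.36 for 3D6 (adjusted p = 0.986). The atrial score was itself higher with Aβ42 by 0.94 (exact two-sided permutation test, p = 0.0577, adjusted p = 0.26 over 9 scores), so the score and the peptide cannot be told apart fully in these 14 hearts. Pooled over all 14 hearts with group means subtracted, *Gpx3* also followed the fibroblast score in the peptide study (r = 0.859, rho = 0.824, adjusted permutation p = 0.000771 and 0.00529; r = 0.741 without the 2 hearts farthest from the median score) and the macrophage score (r = 0.805, rho = 0.807, adjusted permutation p = 0.00234 and 0.00645; r = 0.761 without 2 hearts). It went against the ventricular score there (r = -0.798, rho = -0.789, adjusted permutation p = 0.00234 and 0.00851; r = -0.639 without 2 hearts). These pooled values span the sets of high and low atrial score, and whether they hold within a set was not tested. In the antibody study, none of these 3 scores passed with *Gpx3*, with r of 0.360 for fibroblasts, 0.360 for macrophages and -0.329 for the ventricle.

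**Figure D2:**
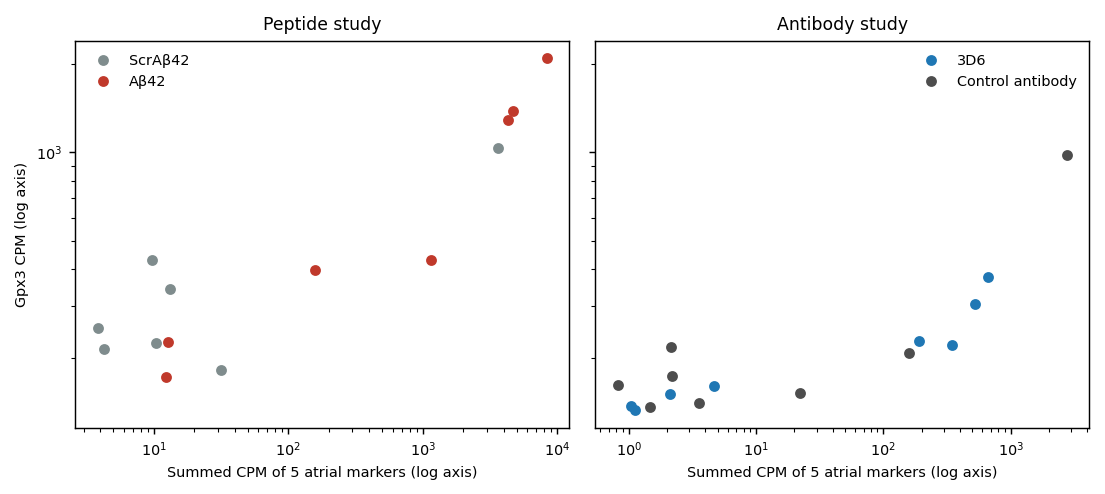
Gpx3 level of each heart (CPM, log axis) against the summed level of 5 atrial markers (CPM, log axis), with points coloured by group. Hearts with an atrial sum of at least 158 CPM had Gpx3 levels of 208 to 2089 CPM, and in each study the heart with the highest atrial sum had the highest Gpx3 level.

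Neither mitochondrial peroxiredoxin passed the test in either comparison. *Prdx3*, the thioredoxin-dependent peroxidase of the matrix, ranged from 180 to 366 CPM with Aβ42 (median 307) and from 211 to 325 CPM with ScrAβ42 (median 280). The difference on the log2 scale was 0.04 ± 0.14 (adjusted p = 0.97), and 0.27 with the atrial score held constant in the fit (adjusted p = 0.603). With 3D6 it ranged from 104 to 127 CPM (median 118), within the 63.7 to 134 CPM of the control antibody group (median 111), where mouse 22 was the lowest. On the log2 scale it differed by 0.10 ± 0.11 (adjusted p = 0.946), and by 0.02 without mouse 22. *Prdx3* went against the endothelial score across these 16 hearts (r = -0.762, adjusted permutation p = 0.00553; rho = -0.688, adjusted permutation p = 0.0185; r = -0.541 without the 2 hearts farthest from the median score). *Prdx5*, which is found in mitochondria, peroxisomes and cytosol, ranged from 182 to 337 CPM with Aβ42 (median 294) and from 232 to 348 CPM with ScrAβ42 (median 280). The ranges were nearly the same except for Abeta42_3457, and the log2 fold change was -0.03 ± 0.13 (adjusted p = 0.98). It was 0.16 with the atrial score held constant. With 3D6 it ranged from 147 to 266 CPM (median 222), and with the control antibody from 156 to 345 CPM (median 224), for a log2 fold change of -0.15 ± 0.16 (adjusted p = 0.946), and of -0.04 without mouse 22.

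*Txnrd1*, the cytosolic thioredoxin reductase, was the most precisely measured member in the peptide study. It ranged from 59.7 to 75.9 CPM with Aβ42 (median 71.4) and from 69.0 to 81.7 CPM with ScrAβ42 (median 74.1). The 3 highest hearts were given ScrAβ42 and the 2 lowest were given Aβ42. Its log2 fold change was -0.09 ± 0.06 (adjusted p = 0.848), which gives a 95% interval for the fold of 0.854 to 1.03. With 3D6 it ranged from 37.4 to 47.3 CPM (median 40.8), and with the control antibody from 23.9 to 48.6 CPM (median 38.1). Here 3 control hearts lay below every 3D6 heart and 1 lay above, and the log2 fold change was 0.16 ± 0.11 (adjusted p = 0.946), and 0.10 without mouse 22. The effects of the 2 treatments on *Txnrd1* differed by -0.26 ± 0.14 (adjusted p = 0.853).

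Neither of the NRF2 targets *Nqo1* and *Hmox1* passed the test. *Nqo1*, a quinone reductase, ranged from 20.7 to 86.0 CPM with Aβ42 (median 64.1) and from 42.1 to 84.8 CPM with ScrAβ42 (median 75.8). Abeta42_3457 was the 1 Aβ42 heart below the control range, the next lowest Aβ42 heart being at 63.0 CPM. Its difference was -0.21 ± 0.23 on the log2 scale (adjusted p = 0.918), and -0.05 without Abeta42_3457. Holding the atrial score constant in the fit gave 0.10. With 3D6, *Nqo1* ranged from 27.9 to 39.4 CPM (median 36.0), and with the control antibody from 20.6 to 43.9 CPM (median 35.1), with a log2 fold change of 0.01 ± 0.13 (adjusted p = 0.998). *Hmox1*, which breaks down haem, ranged from 16.02 to 33.7 CPM with Aβ42 (median 24.6) and from 16.4 to 30.8 CPM with ScrAβ42 (median 28.2). Both groups spanned the same levels, and the log2 fold change was -0.03 ± 0.16 (adjusted p = 0.983). With 3D6 it ranged from 4.14 to 10.7 CPM (median 5.92), and with the control antibody from 4.51 to 9.78 CPM (median 6.26). The difference was -0.03 ± 0.18 on the log2 scale (adjusted p = 0.986).

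**Figure D3:**
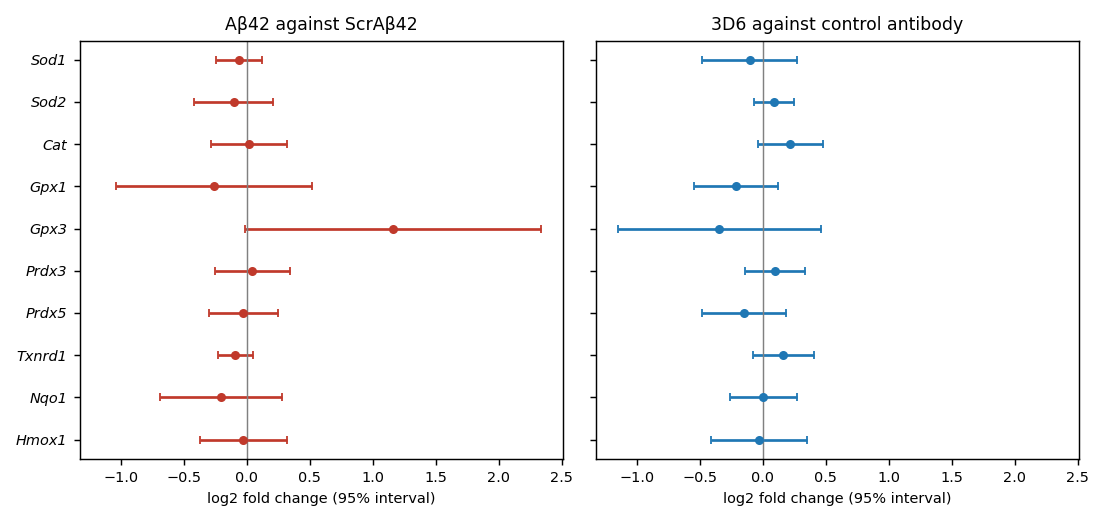
Log2 fold change of each gene with its 95% interval, for Aβ42 against ScrAβ42 (left) and 3D6 against the control antibody (right), from edgeR. Every interval includes 0, and the widest is that of Gpx3 with Aβ42, from -0.01 to 2.33.

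No member passed an adjusted p of 0.05 in either comparison, and neither did any other gene (0% of 11985 genes tested for Aβ42 and 0% of 12274 for 3D6). At an unadjusted p under 0.05, 0 of the 10 members passed in either comparison, beside 6.51% of all genes for Aβ42 (780 genes) and 3.64% for 3D6 (447 genes). These counts moved with single hearts, from 608 to 1267 genes for Aβ42, the highest without ScrAbeta42_3448, and from 256 to 771 for 3D6, the lowest without mouse 4 and the highest without mouse 8. *Gpx3* with Aβ42 was under 0.05 in 10 of the alternative settings (14 that left out 1 heart and 10 others), among them DESeq2 and the fit without ScrAbeta42_3448, and not in the others, among them the fit without Abeta42_3457 and the fit with the atrial score, and 0 to 2 members were under it in any one setting. DESeq2 gave 12 genes an adjusted p under 0.05 for Aβ42, none of them a member, and 0 for 3D6. With Aβ42, 3 members were higher and 7 lower, with a median log2 fold change of -0.05, beside 0.00 over all genes. This split moved with the settings, to 6 higher and 4 lower with the atrial score as a covariate. It was 5 and 5 without Abeta42_3457 and ScrAbeta42_3448 together. With 3D6, 5 were higher and 5 lower, with a median of -0.01, which was also the median over all genes. The mitochondrial share as a covariate made this 7 higher and 3 lower. The median size of the change was 0.08 for the members and 0.09 for all genes with Aβ42, and 0.12 and 0.10 with 3D6. The difference of the 2 effects reached an adjusted p under 0.05 for 0% of 11361 genes and an unadjusted p under 0.05 for 5.83%, including 1 member, *Gpx3*. The intervals show what the numbers of hearts could resolve. For *Txnrd1* and *Sod1* with Aβ42 they lie within folds of 0.843 to 1.09, and for *Sod2* with 3D6 within 0.954 to 1.19, whereas for *Gpx1* with Aβ42 they run from 0.488 to 1.43.

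Several members varied together from heart to heart. Over log2 CPM with the group mean subtracted, 8 of the 36 pairs without *Gpx3* passed an adjusted p of 0.05 by both Pearson's and Spearman's coefficient in the peptide study (6 positive), and 12 of 36 in the antibody study (6 positive), with permutation p-values adjusted over all 45 pairs. In the peptide study, *Sod2*, *Prdx3* and *Prdx5* formed the tightest set. *Sod2* and *Prdx5* had r = 0.975 and rho = 0.956, *Sod2* and *Prdx3* r = 0.965 and rho = 0.965, and *Prdx3* and *Prdx5* r = 0.948 and rho = 0.925 (adjusted permutation p at most 0.0003 for each). The smallest p that 100000 permutations can give, 1e-05, was reached by the first 2 pairs. Without the 2 hearts farthest from the median of the first gene, r was 0.951, 0.960 and 0.876, and without Abeta42_3457 and ScrAbeta42_3448 it was 0.947, 0.916 and 0.874. The ventricular cardiomyocyte score followed the same 3 genes, with r of 0.955 for *Sod2*, 0.950 for *Prdx3* and 0.962 for *Prdx5*, and the fibroblast score went against them, with r of -0.916, -0.937 and -0.878 (adjusted permutation p at most 0.0009 over 90 relations). The macrophage score went against them too, with r of -0.790, -0.769 and -0.737 (adjusted permutation p at most 0.0145). These relations were not particular to the 3 genes. *Txnrd1* also passed with the ventricular score by both coefficients (r = 0.808, rho = 0.706), and *Sod1* against the fibroblast score (r = -0.752, rho = -0.732).

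**Figure D4:**
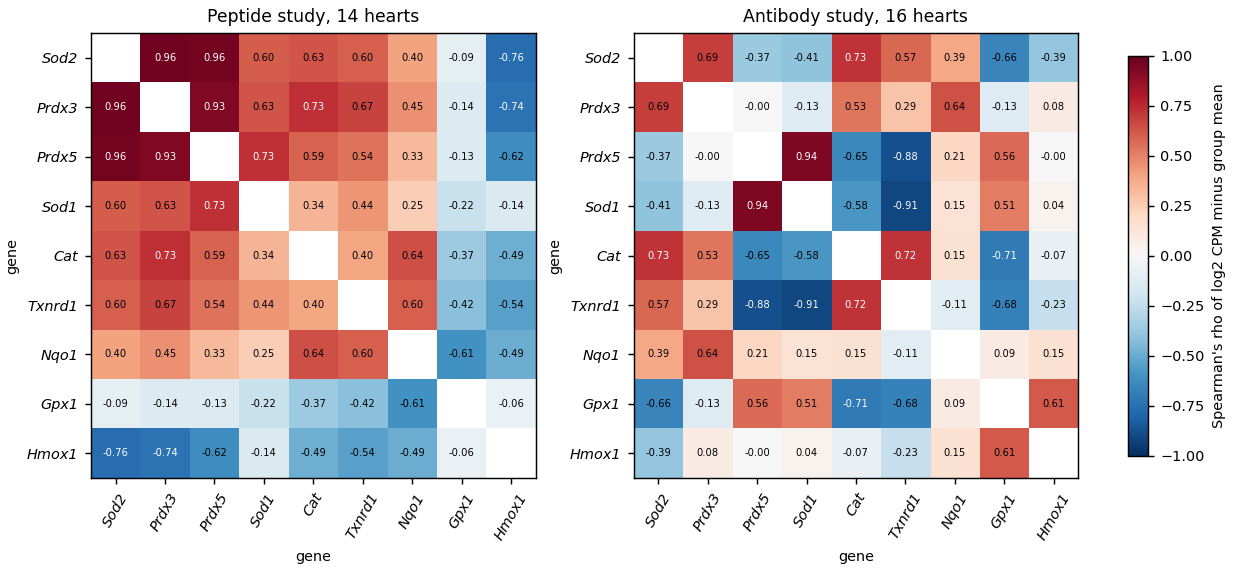
Spearman's rho between 9 of the genes across the 14 hearts of the peptide study (left) and the 16 hearts of the antibody study (right), on log2 CPM minus the group mean, with red for positive and blue for negative values. Sod2, Prdx3 and Prdx5 form a block of 0.93 to 0.96 on the left, and Txnrd1 is at -0.88 and -0.91 with Prdx5 and Sod1 on the right.

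The antibody study had another arrangement. *Sod1* and *Prdx5* varied together (r = 0.921, rho = 0.935, adjusted permutation p = 0.00015 and 0.00045), and *Txnrd1* went against both, with r = -0.912 for *Sod1* and r = -0.884 for *Prdx5* (rho = -0.912 and -0.876, with the same adjusted p-values). In the peptide study, *Txnrd1* had positive coefficients, with r = 0.584 (adjusted permutation p = 0.0403) and rho = 0.442 (adjusted permutation p = 0.174) for *Sod1*, and with r = 0.718 (adjusted permutation p = 0.0092) and rho = 0.543 (adjusted permutation p = 0.090) for *Prdx5*. Both pairs thus passed by r and not by rho. Without mice 15 and 22, the 3 pairs kept their signs, with r of 0.935, -0.827 and -0.874. The share of counts on the mitochondrial genome, 25.9% to 37.8% in these hearts, went with *Txnrd1* (r = 0.904), *Cat* (0.805) and *Sod2* (0.771) and against *Gpx1* (-0.850), *Prdx5* (-0.780) and *Sod1* (-0.736), each with an adjusted permutation p of at most 0.00704 for r over 80 relations. In the peptide study, no member passed against this share by both coefficients. The ventricular score also went with *Prdx5* (r = 0.865) and *Sod1* (0.721) and against *Txnrd1* (-0.763). In the peptide study *Txnrd1* had the opposite sign with that score (r = 0.808). *Sod2* and *Prdx3*, which followed the score there, had r of -0.14 and -0.15 across the antibody hearts. Whether the studies differ was not tested. The red cell score went with *Gpx1* (r = 0.659) and *Sod1* (0.649) and against *Sod2* (-0.755), *Txnrd1* (-0.735) and *Cat* (-0.705), and the macrophage score went with *Gpx1* (0.882) and *Prdx5* (0.691) and against *Txnrd1* (-0.651), each with an adjusted permutation p of at most 0.0328 by both coefficients. Given the share as a covariate, the log2 fold changes with 3D6 became 0.12 for *Sod1*, 0.04 for *Prdx5*, 0.05 for *Txnrd1*, -0.02 for *Gpx1*, 0.11 for *Cat* and 0.04 for *Sod2*.

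Apart from *Gpx3*, 2 pairs passed in both studies, *Sod2* with *Prdx3* and *Sod1* with *Prdx5*. In the antibody study, *Sod2* and *Prdx3* had r = 0.813 and rho = 0.691, and in the peptide study *Sod1* and *Prdx5* had r = 0.724 and rho = 0.727. *Prdx3* and *Prdx5*, a tight pair of the peptide study, had rho = -0.00294 across the antibody hearts (adjusted permutation p = 1.0). *Sod2* and *Prdx5*, at r = 0.975 in the peptide study, had r = -0.385 and rho = -0.371 there (adjusted permutation p = 0.271 for rho). Whether these coefficients differ between the studies was not tested. *Cat* and *Sod2* had rho = 0.727 in the antibody study, and rho = 0.31 without mice 15 and 22.

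*Gpx3* had a negative r with *Sod2*, and with *Prdx3*, in each of the 4 sets of hearts, again with no group mean subtracted within a set. Only *Sod2*, *Prdx3*, *Prdx5* and *Cat* were examined within sets, which makes 16 relations. All of them had already passed with *Gpx3* over the whole peptide study, as had *Sod1*, which was not examined within sets. The adjusted p-values below do not account for that choice. Among the 10 antibody hearts with an atrial score below 0, where *Gpx3* stayed between 133 and 218 CPM, it was lower where *Sod2* was higher (r = -0.945, permutation p = 0.00043; rho = -0.915, permutation p = 0.00053; adjusted p = 0.00688 and 0.00848 over 16 relations). The 6 hearts with a higher score gave r = -0.915 (adjusted permutation p = 0.0188) and rho = -0.771 (adjusted permutation p = 0.184). In the peptide study, *Gpx3* and *Sod2* had r = -0.924 (adjusted permutation p = 0.0188) and rho = -0.943 (adjusted permutation p = 0.0835) among the 6 hearts with a score above 0, and r = -0.685 (adjusted permutation p = 0.0909) and rho = -0.476 among the other 8. With *Prdx5* the sign differed between the studies among hearts with low scores, at r = -0.889 in the peptide study and r = 0.769 in the antibody study (adjusted permutation p = 0.0188 for each), while rho was -0.810 and 0.709 (adjusted permutation p = 0.0835 for each) and did not pass. The difference between the studies was not itself tested. The negative r was not particular to *Sod2*. Among the 10 low-score antibody hearts, *Prdx3* had r = -0.851 (adjusted permutation p = 0.0240) and *Cat* r = -0.853 (adjusted permutation p = 0.0188). Neither passed by rho (adjusted permutation p = 0.215 and 0.123). *Prdx3* had r = -0.243 among the 6 antibody hearts with a higher score, and *Cat* r = 0.0451 among the 8 low-score peptide hearts.

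The genes whose pattern across hearts was most like each member were found among the 11361 genes tested in both studies, by the lower of the 2 Spearman coefficients. They are given as a description, since the best of so many genes is high by selection. For *Prdx5* they were 3 subunits of respiratory complex I, *Ndufs7*, *Ndufb10* and *Ndufb9*, with rho of at least 0.969 across the peptide hearts and of 0.976 across the antibody hearts. For *Sod2* they were *Got1* (rho 0.952 and 0.944), *Sucla2* (0.996 and 0.912) and *Hspa9* (0.965 and 0.909), which encode an aspartate aminotransferase, a subunit of succinyl-CoA ligase and the mitochondrial HSP70. *Prdx3* was closest to *Hibadh*, *Rhot2* and *Dgat2*, with rho between 0.885 and 0.965. *Cat* was closest to *Lbh*, *Cd36*, the fatty acid transporter, and *Acadsb*, with rho between 0.871 and 0.908. *Gpx3* was closest to *Fam114a1* (0.960 and 0.935), *Slc7a7* (0.938 and 0.926) and *C4b*, a complement component (0.952 and 0.912). *Sod1* was nearest to *Vamp8*, *Urod* and *Lamtor2*, and *Txnrd1* to *Plaa* and *Fbxo3*. The matches of *Gpx1* (*Prpsap2*, *Bax* and *Smarcd3*), *Nqo1* (*Gsto1*, *Cog4* and *Cops5*) and *Hmox1* (*Mxra8*, *Fgfr1* and *Ssc5d*) were looser, with rho from 0.659 to 0.809.

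The other genes of the pathway were taken as 12 lists of 89 genes, of which 87 could be tested for Aβ42 and 85 for 3D6. None had an adjusted p under 0.05. With Aβ42, 39 were higher and 48 lower (median -0.02), and 2 of the 87 were higher and 4 lower at an unadjusted p under 0.05, beside 3.6% higher and 2.91% lower over all genes. With 3D6, 47 were higher and 38 lower (median 0.02), and 1 was higher and 0 lower, beside 1.32% and 2.32%. The 10 genes of NRF2 control and its further targets were 9 lower and 1 higher with Aβ42 (median -0.12) and 9 higher and 1 lower with 3D6 (median 0.03), beside 5929 of 11985 genes lower with Aβ42 and 5815 of 12274 higher with 3D6 over all genes. The splits of the other lists varied. With Aβ42 the glutathione peroxidases were 3 higher and 0 lower, and with 3D6 0 and 3. In the same order, superoxide dismutation had 2 and 0, then 0 and 2, and the metallothioneins 3 and 0, then 0 and 2. Peroxiredoxins had 2 and 2, then 3 and 1, and glutathione synthesis and recycling 2 and 7, then 6 and 3. Oxidant sources had 5 and 4, then 2 and 6, and the peroxisome 3 and 4, then 6 and 1. The 13 genes of thioredoxin and methionine sulfoxide repair were 4 higher and 9 lower with Aβ42 and 10 higher and 3 lower with 3D6, the 12 glutathione S-transferases 8 and 4, then 6 and 6, the 7 genes of haem and iron 2 and 5 in both comparisons, and the 8 genes of NADPH supply 4 and 4, then 3 and 5. No list was tested as a set. Among the NRF2 genes, *Mafg*, a small MAF partner of NRF2, averaged 78.7 ± 9.44 CPM with Aβ42 and 89.6 ± 6.20 CPM with ScrAβ42 (SD), a log2 fold change of -0.19 ± 0.08 (adjusted p = 0.714). *Bach1*, a repressor at the same elements, had -0.24 ± 0.11 (adjusted p = 0.748), and the exporter *Abcc1* had -0.27 ± 0.11 (adjusted p = 0.714). None of these 10 had a p under 0.05 with 3D6.

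In the other lists, *Srxn1*, the sulfiredoxin that repairs overoxidised peroxiredoxins, had the smallest p of the pathway with Aβ42. It averaged 40.3 ± 5.24 CPM with Aβ42 (range 30.1 to 46.6) and 50.05 ± 5.04 CPM with ScrAβ42 (46.2 to 58.3), so the groups met only at their edges, and its log2 fold change was -0.31 ± 0.09 (adjusted p = 0.641). The metallothionein *Mt1* had 0.32 ± 0.12 (adjusted p = 0.693) and the glutathione transferase *Gstm1* 0.19 ± 0.07 (adjusted p = 0.709). With 3D6, the iron exporter *Slc40a1* had 0.39 ± 0.18 (adjusted p = 0.946). The remaining 7 lists, of superoxide dismutation, peroxiredoxins, glutathione peroxidases, glutathione synthesis and recycling, NADPH supply, oxidant sources and the peroxisome, held no gene with a p under 0.05 in either comparison. Their smallest p-values belonged to *Sod3* (log2 fold change 0.56 with Aβ42), *Prdx4* (0.23 with Aβ42), *Gpx8* (0.28 with Aβ42), *Glrx* (0.25 with Aβ42), *Tkt* (0.34 with Aβ42), *Maob* (0.31 with 3D6) and *Pex11a* (0.24 with 3D6), none of them under an unadjusted 0.05.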

How the data were processed

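RNA of 30 left ventricles was sequenced as stranded total RNA libraries (TruSeq) and the authors mapped the trimmed reads with Salmon to GENCODE vM24 (GRCm38). The authors deposited gene counts, as unscaled whole numbers, for the peptide study and unscaled estimated counts per transcript for the antibody study. How transcripts were summed to genes in the first table is not given in the sources used here, and 1 count column that matched no labelled sample was not used. Transcript values were assigned to genes with the GENCODE vM21 annotation (99.2% of transcripts found), added up and rounded. Reads of near-identical gene copies may be divided between them by this counting.

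Each study was fitted alone in edgeR 4.0.16 (R 4.3.3) with TMM normalization, genes of at least 10 counts per heart on average, and the two-sided quasi-likelihood test with Benjamini-Hochberg adjustment over all genes. SE and 95% intervals come from that fit, and log2 CPM used a prior count of 2. The 10 genes, the pathway and marker lists, and the tests were chosen with earlier results of these data known. Named genes were all members, pathway genes with p under 0.05 in either comparison (otherwise the smallest p of the list), and the 3 most similar genes of each member, of which 1 is not reported here. The labels give each sample a mouse number, and p-values measure the spread between these hearts. No sequencing batch is named in the labels.

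Marker scores needed at least 2 tested markers, which left out neutrophil markers in both studies and adipocyte markers in the antibody study. Correlations used 100000 permutations, single values exact permutation tests (scipy 1.17.1). Correlations of members with each other and with marker scores over all hearts of a study used values minus the group mean. Those within sets by atrial score did not. The alternatives were DESeq2 1.42.0, RLE and upper-quartile size factors, total counts, other filters, atrial score or mitochondrial share as a covariate, and leaving out hearts.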

Additional observations from a re-analysis of the deposited data

Results flagged for a closer look

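Among the 40 sets of values formed by the 10 genes in the 4 groups, 6 held a heart whose distance to its nearest neighbour was large for the range of its group by Dixon's test, where chance gives about 1 in 20. *Gpx3* in the heart ScrAbeta42_3448 stood at 1033 CPM, the next heart at 429 CPM, and *Gpx1* in the same heart at 266 CPM, the next at 134 CPM. *Gpx3* in mouse 15 of the control antibody group stood at 982 CPM, the next at 218 CPM. *Nqo1* in the Aβ42 heart Abeta42_3457 was low, at 20.7 CPM, the next at 63.0 CPM. In mouse 22 of the control antibody group, *Sod1* was high at 328 CPM, the next at 196 CPM, and *Prdx3* low at 63.7 CPM, the next at 102 CPM. Each of these 4 hearts also had an extreme marker score or mitochondrial share, as had others, and the part of that in these values was not tested.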

How the results depend on the processing

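No member passed an adjusted p of 0.05 under any alternative, the smallest being 0.316. Of the 20 log2 fold changes, 6 kept their sign in every setting run (*Txnrd1* in both studies, and *Sod2*, *Cat*, *Gpx1* and *Prdx3* with 3D6) and 14 did not, and for those the cause was not tested. A kept sign was not always a stable value. In settings other than leaving out single hearts, *Prdx3* with 3D6 fell to 0.00018 and *Gpx1* with 3D6 came to -0.0195. With Aβ42, DESeq2 called 12 genes against 0, and leaving out single hearts gave 0 to 3 genes, with 3 without Abeta42_3452 and 1 without ScrAbeta42_3448. Scaling to the total count gave 0.0077 for *Hmox1* with Aβ42 and -0.034 for *Nqo1* with 3D6. The atrial score as a covariate gave, with Aβ42, 0.018 for *Sod1*, 0.12 for *Sod2*, -0.35 for *Gpx3*, 0.16 for *Prdx5* and 0.10 for *Nqo1*, and it moved *Prdx3* to 0.27 and *Gpx1* to -0.62, both with an unadjusted p under 0.05 (adjusted p = 0.603 and adjusted p = 0.659), and *Cat* to 0.21. The mitochondrial share gave -0.023 for *Cat* with Aβ42 and, with 3D6, 0.12 for *Sod1*, 0.042 for *Prdx5*, -0.031 for *Nqo1* and 0.064 for *Hmox1*. *Cat* with Aβ42 was -0.022 in the exact permutation test, and *Gpx3* with 3D6 was 0.33 in DESeq2. Chosen after seeing the data, leaving out Abeta42_3457 and ScrAbeta42_3448 together gave 0.065 for *Gpx1* and 0.011 for *Prdx5*, and leaving out mice 15 and 22 together gave 0.055 for *Sod1*, 0.41 for *Gpx3* and -0.096 for *Nqo1*. Leaving out single hearts with Aβ42 gave -0.047 to 0.11 for *Cat*, -0.40 to 0.20 for *Gpx1*, -0.026 to 0.13 for *Prdx3*, -0.080 to 0.053 for *Prdx5* and -0.13 to 0.050 for *Hmox1*. With 3D6 it gave -0.19 to 0.085 for *Sod1*, -0.51 to 0.34 for *Gpx3*, -0.069 to 0.063 for *Nqo1* and -0.17 to 0.083 for *Hmox1*. Results that kept their sign without single hearts moved too, from -0.16 to -0.018 for *Sod2*, -0.10 to -0.012 for *Sod1* and -0.11 to -0.055 for *Txnrd1* with Aβ42 (nearest 0 without Abeta42_3457, ScrAbeta42_3449 and Abeta42_3457) and, with 3D6, from -0.28 to -0.13 for *Gpx1* (nearest 0 without mouse 4), 0.14 to 0.26 for *Cat*, -0.21 to -0.043 for *Prdx5*, 0.020 to 0.15 for *Prdx3* and 0.098 to 0.23 for *Txnrd1* (nearest 0 without mouse 22 for these 4). No paired analysis was possible because the groups share no replicate numbers. *Hmox1* with 3D6, at 4.14 to 10.7 CPM, had the fewest counts and so the least precise levels per heart.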
